A study of Mus musculus with 2 samples.

Results

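Langerhans cells, the dendritic cells of the epidermis, were chosen by the raw counts of 9 genes in 2 droplet libraries of skin leukocytes. A member carried 3 or more unique molecular identifiers (UMIs, each standing for 1 captured RNA molecule) of Cd207, 1 or more of Epcam and H2-M2 together and 2 or more of Mfge8. It carried 0 of Xcr1 and Clec9a together and at most 1 of Cd3d, Cd3e and Cd3g together. In all, 175 of 26553 cells met these conditions, 86 of 14619 in the IL31RAKO library and 89 of 11934 in the WT library. The IL31RAKO library came from 4 pooled C57Bl/6 mice that lacked the IL-31 receptor alpha chain, and the WT library from 4 pooled C57Bl/6 mice. Dorsal neck skin of both groups had received Biostir ointment, which contains the house dust mite D. farinae, over 3 weeks, with 2 applications per week, and skin was pretreated with 2% SDS before every application. No untreated skin was compared. Live CD45+ cells were sorted, and 30000 were loaded per library. The ages and sexes of the mice and the extent of the Il31ra deletion were not given in the sources used here. With 1 library a group there is no measure of the spread between mice, so no test was made, and every interval is a 95% interval that covers counting error only.

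Langerhans cells sit between keratinocytes, held there by adhesion molecules such as E-cadherin and EpCAM, and take up antigen through langerin, the lectin encoded by Cd207. They renew themselves in the epidermis, depend on the CSF1 receptor and on TGF-beta, and carry antigen to the lymph node after activation. Dermal dendritic cells of the cDC1 kind also make langerin but carry Xcr1 and Clec9a, and cDC2 cells of mouse skin carry lectins such as Cd209a. IL-31 is an itch cytokine of type 2 inflammation, and its receptor joins IL31RA to OSMR.

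The libraries held 71333292 UMIs (IL31RAKO) and 57000499 UMIs (WT), with medians of 3181 and 2918.5 UMIs per cell. The members were deeper than most cells. Their lowest, median and highest depths were 891, 10535 and 18561 UMIs in the IL31RAKO library and 1705, 9266 and 17016 UMIs in the WT library. Of the cell barcodes, 247 occurred in both libraries. These included 2 IL31RAKO members and 1 WT member, and 0 barcodes were members in both. Scrublet, which scores droplets that hold more than 1 cell, marked 24 of 86 IL31RAKO and 11 of 89 WT members, which were kept. Over all cells it marked 1710 of 14619 (IL31RAKO) and 1139 of 11934 (WT), numbers set by the assumed doublet rate. The marked share of members was thus above that of all cells, more so in the IL31RAKO library.

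The condition on Cd3, applied last, took out most of the barcodes that had met all the others. There were 185 such barcodes in the IL31RAKO and 262 in the WT library, and the limit of 1 Cd3 UMI removed 99 (53.5%) and 173 (66.0%) of them. The 99 IL31RAKO barcodes had medians of 12704 UMIs in all, 16 of Cd207, 52 of Mfge8 and 8 of Ltc4s, and the 173 WT barcodes medians of 11398, 13, 26 and 6. The members had medians of 12 (IL31RAKO) and 10 (WT) UMIs of Cd207, 41.5 and 21 of Mfge8 and 6.5 and 6 of Ltc4s, at lower depth. Per UMI, Cd207 stood at 1660 (IL31RAKO) and 1451 (WT) CPM in the barcodes taken out, against 1747 and 1561 CPM in the members. Ltc4s stood at 532 and 607 CPM in the barcodes taken out, against 734 and 718 CPM in the members, which were 1.38-fold (1.24 to 1.53) and 1.18-fold (1.07 to 1.31) higher. More than 5 Cd3 UMIs were found in 17 IL31RAKO and 33 WT barcodes. Many barcodes lay next to the Cd3 limit. Of the members themselves, 46 (IL31RAKO) and 52 (WT) carried exactly 1 Cd3 UMI, and 38 and 62 of the barcodes taken out carried exactly 2. In free RNA, measured in barcodes of 10 to 50 UMIs, Cd3g stood at 1500 (IL31RAKO) and 1134 (WT) CPM (UMIs per 1000000 summed UMIs), against 22.2 and 31.0 CPM in the members. Whether the Cd3 UMIs came from free RNA or from attached T cells was not tested. The 272 barcodes that failed only the Cd3 limit are called the Cd3 barcodes and are given beside the members. They come from the same libraries and are no replicate.

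Of the earlier steps, the Mfge8 limit left 236 of 362 IL31RAKO and 283 of 396 WT barcodes, and the limit on Xcr1 and Clec9a left 185 and 262 of those. Among barcodes that met the Cd3 limit, few lay next to the other limits. Exactly 3 Cd207 UMIs were carried by 8 IL31RAKO and 7 WT members, and 3 and 9 barcodes that met all other conditions had 2. Just inside the Mfge8 limit were 2 IL31RAKO and 4 WT members, and just outside it 6 and 12 barcodes. Just outside the limit on Xcr1 and Clec9a were 7 IL31RAKO and 2 WT barcodes with 1 UMI.

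The markers that chose the members are given as a description. Cd207, on chromosome 6 (83671215 to 83677857, GRCm38, minus strand), stood at 1747 CPM in IL31RAKO and 1561 CPM in WT members. Epcam stood at 1264 (IL31RAKO) and 1292 (WT) CPM, and H2-M2, a class I-like molecule whose reads may be shared with close copies, at 897 and 887 CPM. Mfge8, which encodes a bridge between dying cells and phagocytes, was the most abundant, at 5143 CPM in IL31RAKO and 3834 CPM in WT members. It also had a wide range between cells. The lowest, median and highest member had 2, 41.5 and 252 Mfge8 UMIs in the IL31RAKO library and 2, 21 and 169 in the WT library. Within a library, Mfge8 per UMI rose with Cd207 per UMI (Spearman's rho across cells 0.39 in 86 IL31RAKO and 0.41 in 89 WT cells), a description across cells of 1 library. Its rho with Epcam was -0.12 (IL31RAKO) and -0.08 (WT). Ltc4s, a Langerhans marker that the rule did not use, had a UMI in 81 of 86 IL31RAKO members and 85 of 89 WT members.

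**Figure D1:**
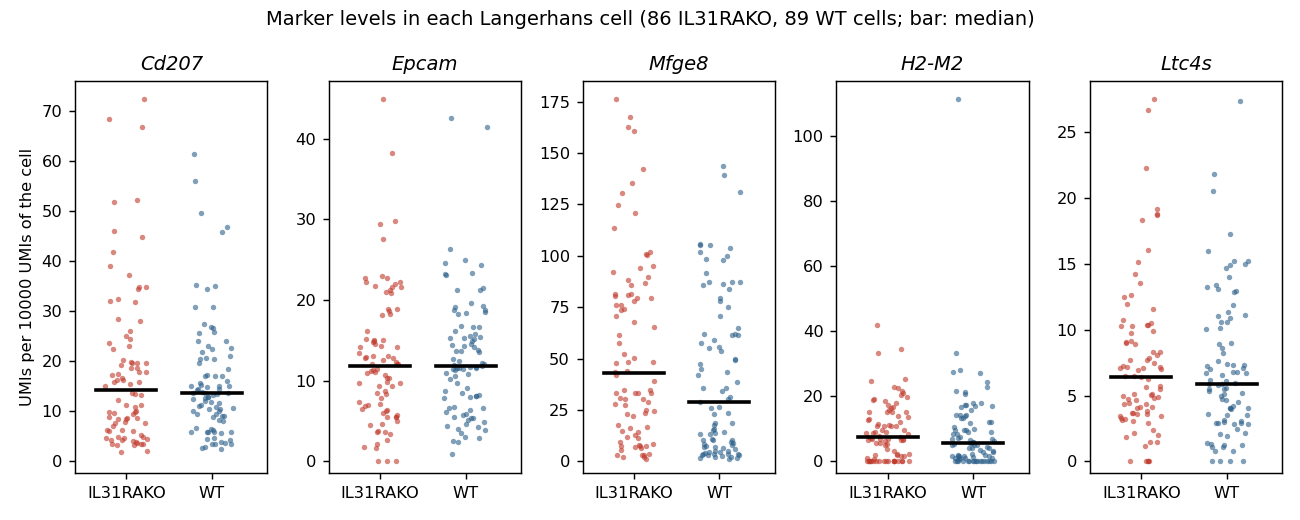
Level of 5 Langerhans markers in each member, in UMIs per 10000 UMIs of the cell, with IL31RAKO cells left of WT cells and a bar at the median. The medians of Cd207 were 14.4 (IL31RAKO) and 13.6 (WT), those of Epcam 11.78 and 11.85, and those of Mfge8 42.82 and 28.85, and the points of the libraries overlap for every marker.

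The members were set against 3 other groups of cells within each library. The cDC1-type group held 106 IL31RAKO and 44 WT cells with 3 or more UMIs of Xcr1 and Clec9a together. The cDC2-type group held 908 IL31RAKO and 645 WT cells with 2 or more UMIs of Cd209a, at most 1 of Cd207, at most 2 of C1q and 0 of Xcr1 and Clec9a. Both groups kept the limit of 1 Cd3 UMI. The last group was all other cells of the library. A gene counted as higher or lower past 2-fold only if it was so in both libraries, among genes with 50 or more UMIs and leaving out the genes of the rule. Against cDC1-type cells, 10.6% of 5401 genes were higher and 4.89% lower. Against cDC2-type cells, 5.87% of 8435 genes were higher and 6.24% lower. Against all other cells, 4.26% of 13298 genes were higher and 19.3% lower.

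Enzymes that make leukotrienes and prostaglandins were among the genes that set the Langerhans cells furthest apart. Of 22 genes of this family, 18 were measured against cDC2-type cells, and 5 were higher and 5 lower. The 5 higher ones were all enzymes, and the 5 lower ones included enzymes too. Pla2g4a, the phospholipase that releases arachidonic acid, stood at 41.1 (IL31RAKO) and 25.1 (WT) CPM in members, against 11.7 and 10.4 CPM in cDC2-type cells. Alox5, the lipoxygenase that starts leukotriene synthesis, stood at 241 and 204 CPM in members, 14.1-fold (IL31RAKO) and 12.75-fold (WT) higher than in cDC2-type cells. Ltc4s, which makes the cysteinyl leukotrienes, was 34.8-fold (IL31RAKO) and 53.6-fold (WT) higher than in cDC2-type cells, at 734 and 718 CPM against 21.1 and 13.4 CPM. On the prostaglandin side, Ptgs1, the constitutive cyclooxygenase, stood at 511 and 433 CPM in members, against 3.95 and 6.21 CPM in cDC2-type cells. Hpgds, the prostaglandin D synthase of blood cells, stood at 688 and 693 CPM, against 6.02 and 7.84 CPM. Ltc4s, Hpgds and Ptgs1 were thus at 433 CPM or more in members of both libraries and below their free RNA levels in the cDC2-type cells.

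The 5 lower genes included receptors for such lipids as well as enzymes. Ltb4r1, the receptor of a leukotriene that draws in leukocytes, stood at 12.2 (IL31RAKO) and 10.7 (WT) CPM in members, against 121 and 102 CPM in cDC2-type cells. Cysltr1, a receptor of cysteinyl leukotrienes, stood at 21.1 and 16.7 CPM in members, against 48.0 and 40.2 CPM. The other lower genes of the family were the receptor Ptger3 and the enzymes Tbxas1 and Ggt5. Alox5ap, which presents arachidonic acid to the lipoxygenase, was at 1235 and 1086 CPM in members and within 2-fold of cDC2-type cells, at 966 and 944 CPM. Against cDC1-type cells, 6 of 14 measured genes of the family were higher and 1 lower, and against all other cells 6 of 22 were higher and 4 lower. The 272 barcodes that failed only the Cd3 limit lie among the other cells. Without them the other cells had 18.6 and 24.5 CPM of Ltc4s, in place of 30.6 and 50.5 CPM.

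The 250 bases before the start of Ptgs1 and Alox5 are shown because both enzymes stood above the other dendritic cells in both libraries, with those of Cd207 beside them as the gene that names the cells. They are RefSeq sequence of build GRCm38.p6, at chr2:36230176-36230425 (plus strand), chr6:116461179-116461428 (minus strand) and chr6:83677858-83678107 (minus strand), read 5′ to 3′ on the strand of the gene. Capitals mark GAGGAA, a core motif of the myeloid factor PU.1, searched on both strands together with TGTGGT, a core motif of RUNX factors.
Ptgs1: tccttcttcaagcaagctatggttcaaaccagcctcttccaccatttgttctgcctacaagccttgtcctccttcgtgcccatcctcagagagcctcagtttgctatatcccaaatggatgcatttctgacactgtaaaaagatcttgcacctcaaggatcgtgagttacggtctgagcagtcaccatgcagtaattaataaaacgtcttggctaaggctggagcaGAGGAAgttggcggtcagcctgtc
Alox5: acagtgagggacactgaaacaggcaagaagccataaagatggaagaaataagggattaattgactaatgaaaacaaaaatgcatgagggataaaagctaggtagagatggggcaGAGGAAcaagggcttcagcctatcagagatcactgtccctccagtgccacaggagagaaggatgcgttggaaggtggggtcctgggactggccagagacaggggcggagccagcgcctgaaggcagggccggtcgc
Cd207: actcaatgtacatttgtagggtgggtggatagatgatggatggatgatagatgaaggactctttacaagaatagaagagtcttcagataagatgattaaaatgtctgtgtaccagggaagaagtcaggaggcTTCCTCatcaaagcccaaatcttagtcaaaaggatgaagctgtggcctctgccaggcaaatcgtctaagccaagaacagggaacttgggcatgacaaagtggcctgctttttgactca
Each window held GAGGAA 1 time and TGTGGT 0 times, on either strand. Of 32851 windows of this length before RefSeq starts, 23.25% held GAGGAA and 14.05% held TGTGGT, and a match is a run of letters, not a measured binding site. Spi1, which encodes PU.1, stood at 674 (IL31RAKO) and 634 (WT) CPM in members and at 432 and 362 CPM in cDC2-type cells.

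Receptors and transcription factors known for Langerhans cells also stood apart. Csf1r, the receptor that keeps Langerhans cells alive, stood at 655 (IL31RAKO) and 569 (WT) CPM in members, against 145 and 123 CPM in cDC2-type and 23.4 and 6.89 CPM in cDC1-type cells. Flt3, the growth factor receptor of other dendritic cells, went the other way, at 31.1 and 22.7 CPM against 79.7 and 65.3 CPM in cDC2-type cells. Of 6 CSF receptor genes measured against cDC2-type cells, 3 were higher and 1 lower.

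Of 17 transcription factors measured against cDC2-type cells, 3 were higher and 6 lower, and Runx3 and Irf8 were among those higher. Runx3, which Langerhans cells need in mice, stood at 292 (IL31RAKO) and 261 (WT) CPM in members, against 49.1 and 49.0 CPM in cDC2-type cells. Irf8, best known from cDC1 cells, stood at 226 and 202 CPM in members, against 80.1 and 56.8 CPM in cDC2-type but 1764 and 1609 CPM in cDC1-type cells. The lower ones were Irf4, Batf3, Klf4, Zeb2, Zbtb46 and Tcf4. Zeb2, a factor of cDC2 cells, stood at 34.5 and 37.0 CPM, against 195 and 197 CPM in cDC2-type cells.

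Junction genes other than the Epcam of the rule were higher than in cDC2-type cells in 5 of 11 measured cases and lower in 0. Against cDC1-type cells, 3 of 11 were higher and 2 lower, and against all other cells 6 of 15 were higher and 3 lower. Cdh1, which encodes E-cadherin, stood at 248 (IL31RAKO) and 301 (WT) CPM, against 67.1 and 69.6 CPM in cDC2-type cells. Cldn1, a claudin of tight junctions, was 7.01-fold and 9.28-fold higher, and F11r, a junction adhesion molecule, 7.12-fold and 6.27-fold. Cd9, a tetraspanin, was the least far above, at 2.39-fold and 2.04-fold. The tetraspanin Cd63 was 15.8-fold and 17.9-fold higher, at 1147 and 971 CPM. Survival genes of the Bcl2a1 family were higher than in cDC2-type cells too: Bcl2a1b stood at 580 and 513 CPM against 76.9 and 60.4 CPM, although its reads may be split with its close copies. Of 17 apoptosis and survival genes, 4 were higher and 0 lower than in cDC2-type cells. Against all other cells, 1 of 17 was higher and 1 lower.

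Most class II genes lay within 2-fold of the cDC2-type cells. Of 14 class II genes measured against them, 1 was higher and 0 lower. Cd74, the invariant chain, stood at 50827 (IL31RAKO) and 51679 (WT) CPM in members, against 43465 and 40348 CPM in cDC2-type cells. The exception was H2-DMb2, a peptide-loading chain, 2.68-fold and 2.69-fold higher, at 591 and 494 CPM. Sterol synthesis genes were higher in 6 of 18 and lower in 0, among them Sqle, the squalene epoxidase, at 44.5 and 44.1 CPM against 14.7 and 8.82 CPM.

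The other genes furthest above all other cells were Tspan8, H2-M5, Tmem45b, P2rx2, Slc36a2, Lpar3, Plek2, Xlr, Tbc1d4 and Zmynd15, beside Ptgs1, Ltc4s, Hpgds, Alox5 and Cldn1. Tspan8, a tetraspanin, stood at 133 (IL31RAKO) and 116 (WT) CPM, against 3.85 and 4.36 CPM in all other cells. Tbc1d4 and Zmynd15 were not highest in the members. In mature dendritic-type cells, with 2 or more UMIs each of Ccr7 and Fscn1 (33 IL31RAKO and 14 WT cells), Tbc1d4 stood at 1024 and 1563 CPM, against 749 and 603 CPM in members. Zmynd15 stood at 1158 and 689 CPM there, against 449 and 604 CPM in members. P2rx2, an ATP-gated channel, stood at 114 and 178 CPM, against 3.06 and 11.4 CPM. Its ratio, IL31RAKO over WT, was 0.644 (0.496 to 0.833) in members and 0.584 (0.466 to 0.727) in the Cd3 barcodes. Lpar3, a receptor of lysophosphatidic acid, stood at 223 and 240 CPM, against 11.2 and 19.9 CPM.

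Lectins of the cDC2 kind lay on the low side. Of 17 lectins and pattern receptors measured against cDC2-type cells, 10 were lower and 2 higher. Cd209a was at 76.7 (IL31RAKO) and 23.9 (WT) CPM in members and at 1549 and 1421 CPM in the cDC2-type cells, which Cd209a itself had chosen. Clec10a stood at 13.3 and 8.35 CPM, against 270 and 272 CPM. Ly75, the receptor DEC-205, was higher than in cDC2-type cells, at 75.6 and 53.7 CPM against 3.197 and 3.27 CPM, and so was Tlr2.

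**Figure D2:**
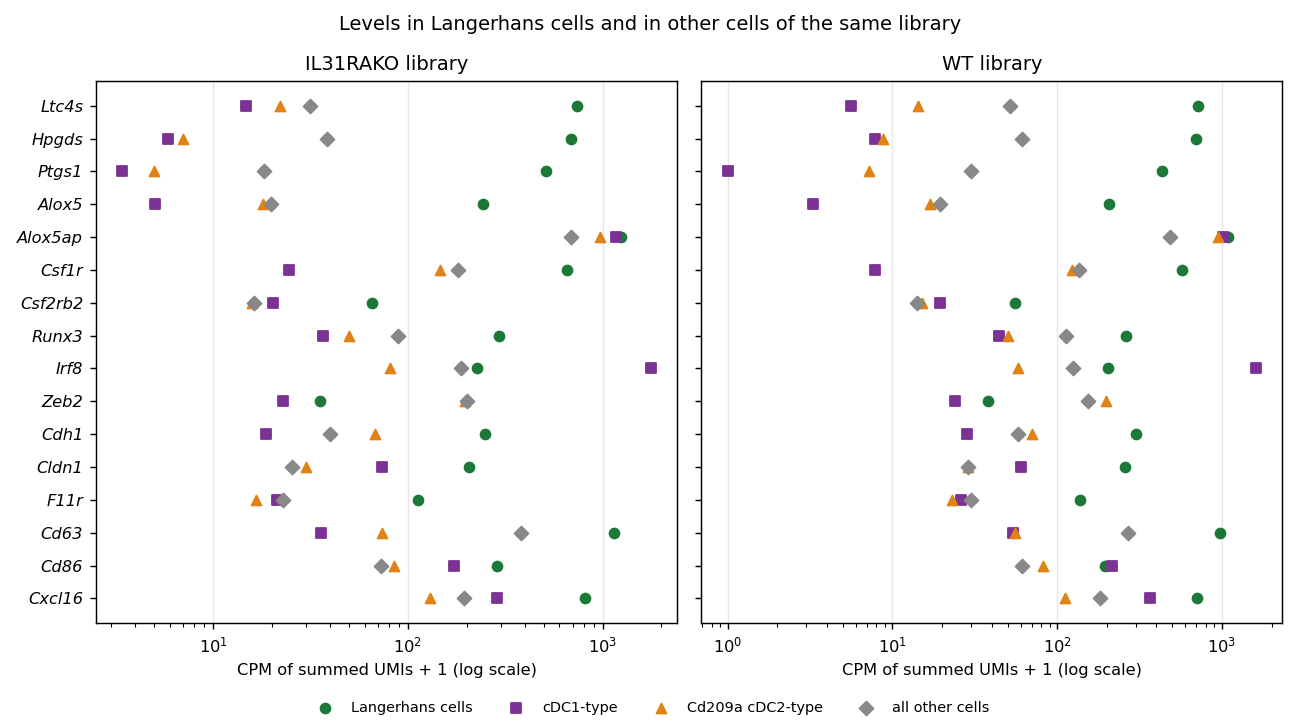
Level of 16 genes in Langerhans cells, cDC1-type cells, Cd209a cDC2-type cells and all other cells, as CPM of summed UMIs plus 1 on a log axis, IL31RAKO library left and WT library right. Ltc4s, Hpgds, Ptgs1 and Alox5 are furthest right in Langerhans cells in both panels, Alox5ap is close together in the dendritic cell groups, and Irf8 is highest in cDC1-type cells.

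Il1b and Cxcl2 were among the genes that varied most from member to member. After each member of 1000 or more UMIs had been thinned to 1000, the variance over the mean (Fano factor) had a median of 1.08 (IL31RAKO) and 1.07 (WT) over 489 genes. The 8 genes of highest Fano factor were Actb, Malat1, Cst3, Il1b, Lyz2, Cxcl2, Tmsb4x and Cd74. Il1b, which encodes the cytokine IL-1 beta, had a Fano factor of 5.44 in IL31RAKO and 4.33 in WT members, and up to 83 and 66 UMIs in 1 cell. It had a UMI in 65 of 86 IL31RAKO and 50 of 89 WT members, and its level of 749 and 675 CPM was under that of free RNA, 921 and 1007 CPM. Cxcl2, a chemokine for neutrophils, had a Fano factor of 4.51 and 3.68, at 1494 and 1038 CPM, above its free RNA level of 779 CPM in the IL31RAKO library and below 1075 CPM in the WT library.

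Members with genes of maturation or of the cell cycle were a minority. Ccr7 and Fscn1, genes of migrating dendritic cells, were found together in 1 of 86 IL31RAKO members (1.16%, exact binomial 0.0294 to 6.31%) and 1 of 89 WT members (1.12%, 0.0284 to 6.10%), against 0.881% and 0 of 645 cDC2-type cells, which allows up to 0.570%. Ccr7 alone had a UMI in 12.8% of IL31RAKO and 10.1% of WT members, against 4.41% and 2.02% of cDC2-type cells, whose median depths of 5604.5 and 4421 UMIs were lower. Of the members, 12 of 86 (14.0%, 7.42 to 23.1%) in the IL31RAKO and 9 of 89 (10.1%, 4.73 to 18.3%) in the WT library had 2 or more UMIs of the cycle genes Mki67 and Top2a. Both intervals hold the share of the other library. The shares were 2.97% (IL31RAKO) and 4.65% (WT) in cDC2-type cells and 4.87% and 7.12% in all other cells, whose median depths were lower, at 3166 and 2902 UMIs in all other cells. Of 27 proliferation genes measured against cDC2-type cells, 8 were higher in the members and 0 lower. Against cDC1-type cells, 4 of 23 were higher and 0 lower, and against all other cells 0 of 29 were higher and 0 lower.

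The share of Langerhans cells among sorted cells was lower in the IL31RAKO library by count, but by the rule its interval included equality. It was 0.588% (exact binomial 0.471 to 0.726%) in IL31RAKO and 0.746% (0.599 to 0.917%) in WT skin, a ratio of 0.789 (0.580 to 1.07). Of the 13 other selections tried, 4 gave an interval wholly below 1. Without the Cd3 condition the shares were 1.27% and 2.20%, a ratio of 0.576 (0.475 to 0.699), and with up to 5 Cd3 UMIs the ratio was 0.599 (0.488 to 0.734). With doublets removed it was 0.665 (0.468 to 0.940), on 62 IL31RAKO and 78 WT cells, and with 2 or more Cd207 UMIs 0.741 (0.550 to 0.998). When each cell was thinned to 1000 UMIs and the Cd207 limit lowered to 2, 58 IL31RAKO and 50 WT members were left and the ratio was 0.936 (0.630 to 1.395). The share thus depended on how Cd3 UMIs were treated. Depth was not varied apart from the Cd207 limit. In the same libraries the cDC1-type share was 0.725% (IL31RAKO) and 0.369% (WT) and the cDC2-type share 6.211% and 5.405%.

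**Figure D3:**
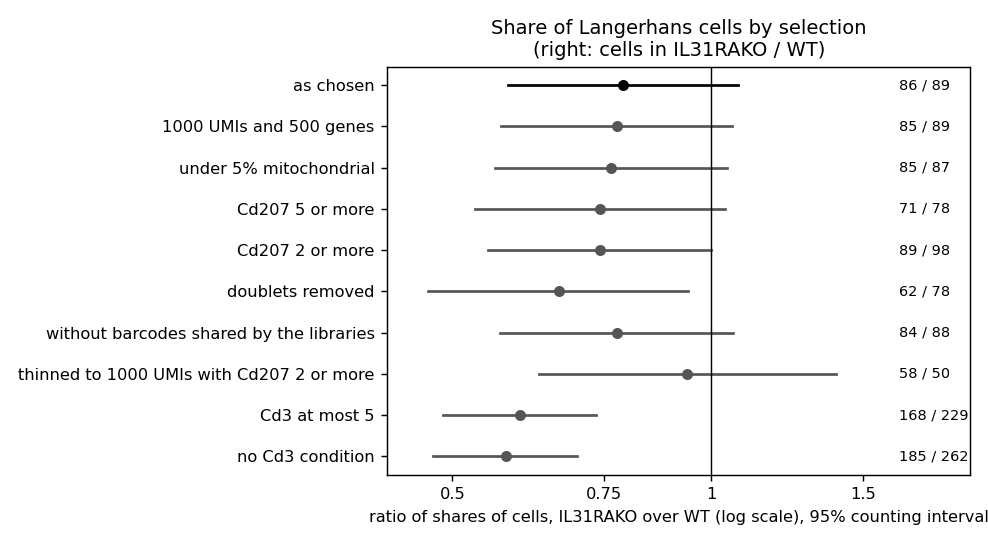
Ratio of the share of Langerhans cells, IL31RAKO over WT, on a log axis with its 95% counting interval, as chosen and under 9 other selections, with the number of IL31RAKO and WT cells at the right. All 10 ratios lie below 1, from 0.576 without a Cd3 condition to 0.936 after thinning with the Cd207 limit at 2, and the intervals of 6 of them reach above 1.

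The receptor that the mutant lacks could not be seen in Langerhans cells at this depth. Il31ra had 0 UMIs in IL31RAKO and 1 UMI in WT members, and Osmr, its partner chain, had 0 and 0. In all other cells Il31ra stood at 0.430 (IL31RAKO) and 0.220 (WT) CPM, so its 3′ counts did not separate the genotypes and give no check of the deletion. Il6st, the shared signal chain of OSM and IL-6, had 15 UMIs in the members of each library. Of 13 measured genes of the IL-31 and OSM system, 1 was 1.5-fold higher and 1 lower in IL31RAKO members. Socs1, an inhibitor of cytokine signals, was the higher one, with 38 UMIs in IL31RAKO and 17 in WT members, a ratio of 2.08 (1.15 to 3.93), and 1.69 in the barcodes that failed only the Cd3 limit. Tyk2, a kinase of cytokine receptors, was the lower, at a ratio of 0.657 (0.287 to 1.46).

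Most genes measured in the members differed by less than 1.5-fold between the libraries. Of 3734 genes with 50 or more UMIs over the members, 206 (5.52%) were 1.5-fold or more higher in IL31RAKO and 176 (4.71%) as much lower. The median log2 ratio was 0.02. Among all 6384 genes with 20 or more UMIs, the floor used for gene lists, 9.76% were higher and 9.38% lower past 1.5-fold. The list counts between the libraries are to be read beside these shares.

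Il1r2, Tgfbi, Clec4n and Il18 were among the genes higher in IL31RAKO members. Il1r2, the decoy receptor that binds IL-1, stood at 1008 CPM in IL31RAKO and 606 CPM in WT members, a ratio of 1.66 (1.49 to 1.86), and 1.78 (1.66 to 1.92) in the barcodes that failed only the Cd3 limit. In all other cells it stood at 292 and 191 CPM. Tgfbi, a matrix protein induced by TGF-beta, stood at 556 and 294 CPM, a ratio of 1.89 (1.62 to 2.21), and 1.60 in the Cd3 barcodes. Clec4n, which encodes the fungal and mite glycan receptor dectin-2, stood at 180 and 94.3 CPM, a ratio of 1.91 (1.45 to 2.53), and 1.70 in the Cd3 barcodes. Il18, a cytokine of epithelium and myeloid cells, stood at 95.6 and 43.0 CPM, a ratio of 2.23 (1.49 to 3.38), and 1.40 in the Cd3 barcodes. These 4 genes were higher in both sets of barcodes, and in all other cells too: Tgfbi stood at 714 (IL31RAKO) and 428 (WT) CPM there and Clec4n at 189 and 106 CPM. In WT members Tgfbi, Clec4n and Il18 lay below their WT free RNA levels of 493, 161 and 46.7 CPM, and Il1r2 above its level of 255 CPM. In IL31RAKO members all 4 lay above free RNA.

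The largest ratio belonged to a neutrophil gene. S100a8, a neutrophil alarmin, had 605 UMIs in IL31RAKO and 50 in WT members, of which 246 lay in 1 IL31RAKO cell. Without the top cell of each library its ratio was 7.74, against 11.3 with it. Its level without that cell, 404 CPM in IL31RAKO members, was below its free RNA level of 632 CPM, against 672 CPM with the cell, and in WT members it was 59.7 CPM against 514 CPM in free RNA. It was also 3.76 in the Cd3 barcodes, and in all other cells S100a8 stood at 1636 and 340 CPM. Of 8 neutrophil markers, 6 were measured in members and all 6 were 1.5-fold or more higher in IL31RAKO. Their summed level was 2196 (IL31RAKO) and 746 (WT) CPM in members, 1737 and 1487 CPM in free RNA and 3402 and 856 CPM in all other cells. Il1r2 is 1 of these 8. The part of neutrophil RNA in these ratios was not tested.

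The other named genes higher in IL31RAKO were Arl5a (3.66), Gsr (2.62), Pik3r6 (2.43), Ccnb2 (2.19), Myo1g (2.15), Mt2 (2.13) and Smim3 (1.80). Several were closer to equality in the Cd3 barcodes, where Arl5a had a ratio of 1.555 (1.10 to 2.19), Pik3r6 of 1.345 (0.941 to 1.92), Ccnb2 of 1.37 (1.03 to 1.83), Gsr of 1.73 (1.23 to 2.43) and Myo1g of 1.18 (0.960 to 1.45). Smim3, a small membrane protein, stood at 221 and 123 CPM, and at a ratio of 1.38 (1.17 to 1.64) in the Cd3 barcodes. Mt2, a metallothionein, lay on the other side of equality in the Cd3 barcodes. Its ratio was 0.476 (0.361 to 0.622) there, and 34 of its 87 IL31RAKO UMIs lay in 1 cell.

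Jun, Hspa1a and H2-M5 were among the genes lower in IL31RAKO members. Jun, a subunit of the factor AP-1, stood at 389 CPM in IL31RAKO and 624 CPM in WT members, a ratio of 0.623 (0.543 to 0.715), and 0.621 (0.558 to 0.690) in the Cd3 barcodes. Fos, its partner, stood at 1394 and 1948.5 CPM, a ratio of 0.715 (0.664 to 0.770) that is within 1.5-fold, and 0.586 in the Cd3 barcodes. Hspa1a, an inducible heat shock protein with a near-identical copy in Hspa1b, stood at 58.9 and 185 CPM, a ratio of 0.319 (0.229 to 0.438), and 0.589 in the Cd3 barcodes. H2-M5, a class I-like gene that stood far above other cells in both libraries, stood at 228 and 350 CPM, a ratio of 0.652 (0.542 to 0.782), and 0.504 (0.427 to 0.593) in the Cd3 barcodes. In all other cells H2-M5 stood at 4.99 (IL31RAKO) and 18.5 (WT) CPM, a ratio of 0.270 (0.236 to 0.309), and 0.275 without the Cd3 barcodes. These 4 genes lay below 1 in both sets of barcodes.

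Some lower genes rested on few cells. Ccl17, a chemokine for T cells, had the lowest ratio among the genes with 50 or more UMIs that were named, 0.0799, but 288 of its 303 WT UMIs lay in 1 cell. Without the top cell of each library its ratio was 1.11, and in the Cd3 barcodes it was 2.27. Mmp12, a matrix protease, had 69 of its 174 WT UMIs in 1 cell, and its ratio was 0.391 with and 0.533 without the top cells. Tnf stood at 31.1 and 78.8 CPM, a ratio of 0.395 (0.245 to 0.624), but 0.857 (0.594 to 1.23) in the Cd3 barcodes. Il12b had 1 UMI in IL31RAKO members and 23 in WT members, all in 1 cell. The histone genes Hist1h2ap and Hist1h1b, whose reads may be shared with other histone copies, and Nucb2, Itgb5 and Neurl3 were the remaining named genes, at ratios of 0.432 to 0.577. In the Cd3 barcodes Itgb5 had a ratio of 1.07, Hist1h1b of 0.987, Neurl3 of 0.903 (0.714 to 1.14), Hist1h2ap of 0.7997 and Nucb2 of 0.643, so that only Nucb2 stayed past 1.5-fold.

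**Figure D4:**
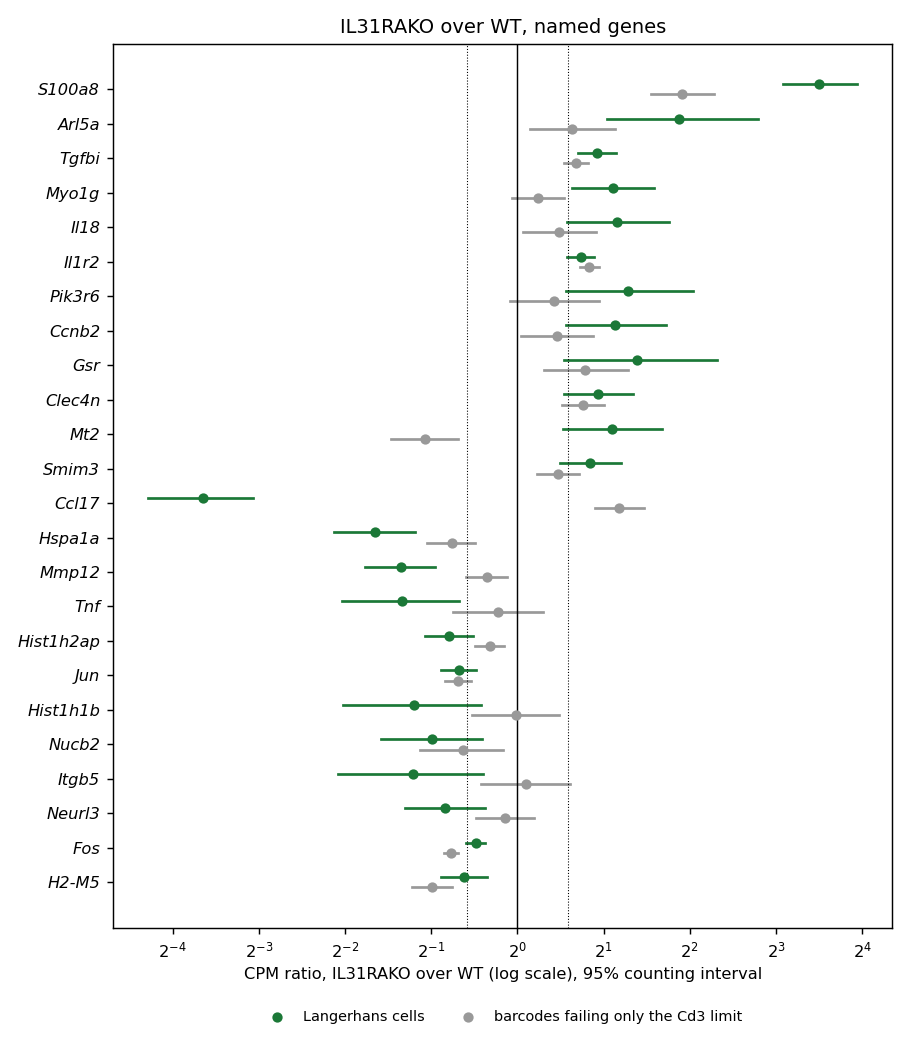
CPM ratio, IL31RAKO over WT, of the 24 named genes on a log axis with 95% counting intervals, in the Langerhans cells and in the barcodes that failed only the Cd3 limit. The solid line marks equality and dotted lines 1.5-fold. Il1r2, Tgfbi, Clec4n, Jun and H2-M5 lie on the same side with close values in both, while Ccl17, Mt2 and Itgb5 lie on opposite sides.

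The immediate early and heat shock list lay mostly below equality. Of its 28 measured genes, 1 was higher and 5 lower past 1.5-fold, and 21 had a ratio below 1. The median log2 ratio was -0.28, against 0.02 for all genes of 20 or more UMIs. Of the 28 genes, 13 lay below free RNA in both libraries. The 5 lower genes were Jun, Nr4a1, Hspa1a, Hspa1b and Hsph1, and the higher 1 was Klf2. Btg2, an early response gene, stood at 839 CPM in IL31RAKO and 1060 CPM in WT members, a ratio of 0.792 (0.718 to 0.873), and 0.686 in the Cd3 barcodes. Fosb had a ratio of 0.758 (0.645 to 0.891), and 0.523 in the Cd3 barcodes. The Cd3 barcodes did not follow for every gene: Nr4a1, a nuclear receptor, had a ratio of 0.642 (0.457 to 0.897) in members and 1.28 (1.02 to 1.60) in the Cd3 barcodes. In all other cells Fos stood at 1496 and 1586 CPM and Jun at 466 and 514 CPM.

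**Figure D5:**
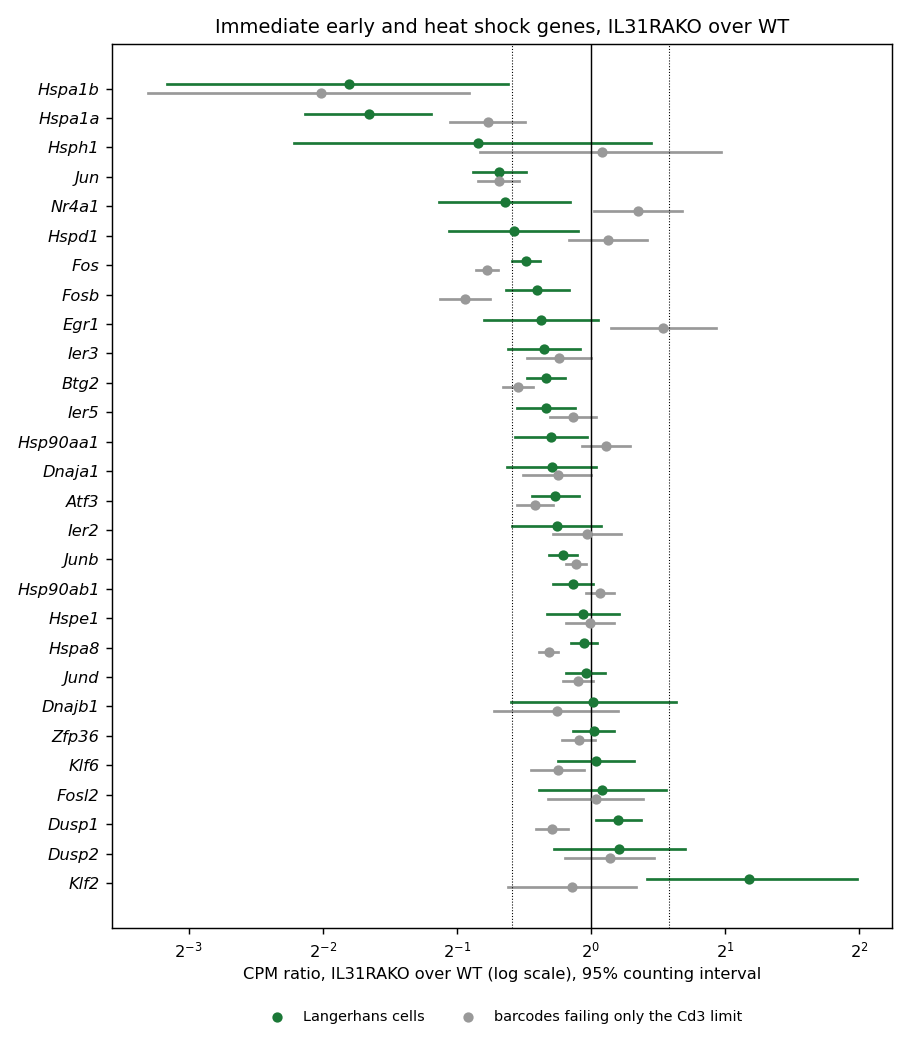
CPM ratio, IL31RAKO over WT, of the 28 measured immediate early and heat shock genes on a log axis with 95% counting intervals, in the Langerhans cells and in the barcodes that failed only the Cd3 limit. Of the 28 ratios in Langerhans cells 21 lie left of the solid line of equality. Dotted lines mark 1.5-fold.

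Class II genes differed by less than 1.5-fold between the libraries. Of 14 class II genes, 0 were past 1.5-fold in either direction, with a median log2 ratio of -0.03. H2-Ab1, a class II chain, stood at 24040 CPM in IL31RAKO and 24584 CPM in WT members, a ratio of 0.978 (0.959 to 0.997). Of 17 class I genes 0 were higher and 2 lower. The 2 were H2-Q4 and H2-Q6, whose reads may be shared between copies. Of 8 costimulation genes, 1 was higher and 1 lower. Cd86, a costimulator of T cells, stood at 287 and 194 CPM, a ratio of 1.47 (1.21 to 1.81) that is within 1.5-fold, and 1.47 (1.28 to 1.69) in the Cd3 barcodes. In cDC2-type cells it stood at 83.7 and 81.7 CPM. Pvr, a ligand of T and NK cell receptors, was the higher gene, at 1.94 (1.16 to 3.35), and Tnfsf8 the lower, at 0.573 (0.206 to 1.49).

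Most genes of the Langerhans identity list were within 1.5-fold. Without the 4 genes of the rule, 12 were measured, of which 2 were higher, Itgam and Adgre1, and 0 lower, with a median log2 ratio of 0.10. Mfge8 had a ratio of 1.34 (1.28 to 1.40) in members and 1.37 in the Cd3 barcodes, against 0.850 in all other cells, but it helped to choose the members. Csf1r had a ratio of 1.15 (1.02 to 1.30), Cdh1 of 0.824 (0.685 to 0.991) and Runx3 of 1.12 (0.931 to 1.34). Of 14 genes of lipid mediators, 2 were higher and 2 lower. Ltc4s (1.02), Hpgds (0.992), Alox5 (1.18) and Ptgs1 (1.18) were within 1.5-fold. The higher ones were Pla2g4a, at 1.64 (0.936 to 2.95), and Ptgs2, the inducible cyclooxygenase, with 41 UMIs in IL31RAKO and 8 in WT members. Ptgs2 had a ratio of 1.89 in the Cd3 barcodes and stood at 92.8 and 41.9 CPM in all other cells.

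Of 12 TGF-beta pathway genes, 2 were higher and 3 lower. Tgfbr1, the type I receptor, had 26 UMIs in IL31RAKO and 47 in WT members, a ratio of 0.515 (0.306 to 0.849), and 0.511 in the Cd3 barcodes. Of 9 receptors of type 2 and alarmin cytokines, 2 were higher and 0 lower. Il1r2 was 1 of them, and Il4ra, the IL-4 receptor, had 45 and 25 UMIs, a ratio of 1.68 (1.01 to 2.85), and 1.19 in the Cd3 barcodes. Il13ra1 had a ratio of 0.701 (0.510 to 0.960). Of 3 measured neuropeptide receptor genes, Ramp1, a chain of the CGRP receptor, was lower, at 152 CPM in IL31RAKO and 263 CPM in WT members, a ratio of 0.580 (0.465 to 0.721), and 0.694 in the Cd3 barcodes. Its free RNA level was above both, at 368 and 399 CPM.

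Of 15 interferon response genes, 5 were higher and 0 lower, with a median log2 ratio of 0.37. The 5 were Isg15, Ifitm2, Ifitm3, Usp18 and Rtp4. Ifitm2 stood at 555 CPM in IL31RAKO and 313 CPM in WT members, below its free RNA level of 811 and 773 CPM, and 9 of the 15 genes were below free RNA in both libraries. The summed level of the interferon list was 1797 (IL31RAKO) and 1309 (WT) CPM in members, and 4665 and 2797 CPM in all other cells. Over all genes of 20 or more UMIs, 9.76% were higher and 9.38% lower past 1.5-fold. Of 19 glycolysis and hypoxia genes, 4 were higher and 1 lower, with a median of 0.22. Pgk1, a glycolytic kinase, stood at 161 and 101 CPM, a ratio of 1.59 (1.21 to 2.10), and 1.36 in the Cd3 barcodes. Eno1, an enolase, had a ratio of 1.40 (1.22 to 1.61), and 1.45 in the Cd3 barcodes. Hk2, a hexokinase, was the lower gene, at 0.579 (0.382 to 0.867).

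Of 13 chemokine ligands, 7 were higher and 1 lower, with a median log2 ratio of 0.84, but 8 of the 13 lay below free RNA in both libraries. The median was -0.19 without the Cd3 condition. The summed level of the ligand list was 3007 (IL31RAKO) and 2454.5 (WT) CPM in members, and 6050 and 3511 CPM in all other cells. Cxcl2 had a ratio of 1.44 (1.32 to 1.57) in members, 1.06 in the Cd3 barcodes and 2.69 in all other cells. Cxcl16, which was 6.31-fold (IL31RAKO) and 6.33-fold (WT) above cDC2-type cells, had a ratio of 1.15 (1.03 to 1.29). Ccl22, a chemokine of mature dendritic cells, had 65 and 29 UMIs, but 43 of the 65 lay in 1 cell, and its ratio was 1.27 without the top cells. Of 28 proliferation genes, 7 were higher and 4 lower, with a median of 0.18.

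The summed markers of most other cell types lay below free RNA in the members. The exceptions were the neutrophil and macrophage lists, above it in the IL31RAKO library, and the mature dendritic cell list, at 237 (IL31RAKO) and 191 (WT) CPM against 110.5 and 102 CPM in free RNA. The T cell list held the 3 Cd3 genes, which the rule limits. Its other 4 genes in the files had a summed level of 260 (IL31RAKO) and 216 (WT) CPM in members, against 1390 and 1342 CPM in free RNA. The list of epidermal and gamma-delta T cells stood at 157 and 187 CPM without Fcer1g, a receptor chain that myeloid cells also make, against 1495 and 1206 CPM in free RNA. The keratinocyte list stood at 338 and 304 CPM, against 816 and 701 CPM in free RNA. Mast cell and basophil, B cell, fibroblast, endothelial and melanocyte lists each summed to under 50 CPM in members of both libraries. The macrophage list stood at 3066 (IL31RAKO) and 2151 (WT) CPM in members, against 2642 and 3292 CPM in free RNA. In all other cells it stood at 3440.5 (IL31RAKO) and 1849 (WT) CPM. Of its 7 measured genes, 4 were higher past 1.5-fold in IL31RAKO members and 0 lower, where 9.76% of all genes of 20 or more UMIs were higher. C1qa, a complement gene of macrophages, stood at 1476 and 1074 CPM in members. C1q UMIs numbered 0, 10 and 264 (lowest, median and highest) in IL31RAKO members and 0, 7 and 163 in WT members, with more than 20 in 29 and 23 members. Without those 52 members, Il1r2 had a ratio of 1.72, Tgfbi 2.03, Il18 2.51, Clec4n 1.73, Jun 0.521 and Hspa1a 0.386. Larger moves were those of S100a8 to 19.8, Mt2 to 4.26, Ccnb2 to 3.36 and Arl5a to 2.51.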

How the data were processed

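Gene counts of 2 libraries of sorted live CD45+ skin cells were read, 1 library per genotype and 4 pooled mice per library. The values are raw UMI counts per gene and barcode as deposited, with empty droplets kept. Version 2 of the 10x 3′ kit was used with 26 and 98 sequencing cycles, per the labels' protocols. Cell Ranger 3.1, Seurat 3.2.2 and build mm10 are named in the submitters' processing notes. Their roles and the annotation are not given in the sources used here.

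Cells were barcodes with 500 or more UMIs, 250 or more genes and under 10% mitochondrial UMIs. UMIs were summed over members and scaled to CPM. Ratios (IL31RAKO over WT) carry exact conditional 95% counting intervals, and shares exact binomial (Clopper-Pearson) ones. Free RNA was the sum of barcodes with 10 to 50 UMIs. Counts of genes past 1.5-fold used genes with 50 or more UMIs over the members, and gene lists those with 20 or more. As an alternative, doublets were the top-scoring 0.8% per 1000 cells of each library by Scrublet in scanpy 1.11.5. Python 3.11.15, numpy 2.4.6, scipy 1.17.1, pandas 2.3.3 and matplotlib 3.10.9 were used, and the scripts were tested on simulated data.

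Named genes were, for IL31RAKO over WT, the 12 in each direction with the interval bound closest to 1 still the most distant from it. This left out the rule's own genes, unnamed genes, antigen receptor and haemoglobin genes, those of ribosomes, mitochondria and the sex chromosomes (Xist and Y-linked), and genes below free RNA in the library where they were higher. Further named genes were the 15 furthest above all other cells and 10 in each direction against cDC2-type cells at 100 CPM or more, the 8 of highest Fano factor at a mean of 0.2 or more thinned UMIs, and list members. The members and lists were chosen with earlier results of these data known. Mature dendritic-type cells (33 IL31RAKO and 14 WT) were not used for counts across genes. Alternatives covered the filters, the rule, doublets, depth, free RNA and scaling. 1 gene is not reported here.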

Additional observations from a re-analysis of the deposited data

Results flagged for a closer look

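Ccnb2, which encodes a cyclin of cell division, differed in direction between the Langerhans cells and the rest of the libraries. It had 87 UMIs in IL31RAKO and 37 in WT members, a ratio of 2.19 (1.475 to 3.31). These UMIs lay in only 16 IL31RAKO and 12 WT members, with up to 15 and 10 in 1 cell. The interval counts UMIs and does not cover the spread between cells. In all other cells Ccnb2 stood at 29.1 (IL31RAKO) and 39.4 (WT) CPM, a ratio of 0.740. Its ratio was 1.37 (1.03 to 1.83) in the barcodes that failed only the Cd3 limit, and 3.36 without members over 20 C1q UMIs. The difference between the cell groups was not tested.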

How the results depend on the processing

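With 1 library a group there is no spread between mice, and the counting intervals are widest for genes with few UMIs. No paired analysis was possible because each group has 1 library, and both carry the same replicate number. Of the list medians recomputed under the alternatives, 555 stayed close to their value, 18 moved and 14 reversed, and of the values of named genes 323 stayed close, 52 moved and 6 reversed. The counts of genes past 1.5-fold followed the UMI floor: 2862 higher and 2715 lower with no floor, 623 and 599 at 20 UMIs, and 60 and 42 at 100 UMIs, where the number of genes tested differs by construction. They were 634 higher and 418 lower after subtracting free RNA. That subtraction used free RNA shares of 23.4% (IL31RAKO) and 36.2% (WT), so it was larger in WT members. Without members that carried keratin or T cell UMIs, 31 IL31RAKO and 30 WT cells were left. Of 1465 genes tested there, 125 were higher and 98 lower, against 206 and 176 of 3734 by the rule. Genes higher than in cDC1-type cells then numbered 326, against 574 by the rule. In that setting the log2 ratios of Mt2 (-1.49), Ccl17 (2.07) and Tnf (0.0098) and the medians of the type 17 receptor (-0.27) and macrophage (-0.46) lists reversed.

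The Cd3 condition was varied after seeing the data. Without it the share ratio was 0.576. Of 6926 genes tested, 330 were higher and 235 lower, of which 60 and 28 were also past 1.5-fold in the members. Genes higher than in cDC1-type cells then numbered 983, and 916 with up to 5 Cd3 UMIs, against 574 by the rule. The number of genes tested differed between the settings. Reversed log2 values without the condition were those of Mt2 (-0.39) and of the TGF-beta (0.15), costimulation (-0.055), chemokine ligand (-0.19) and neuropeptide receptor (-0.22) lists, and with up to 5 Cd3 UMIs those of Mt2 (-0.40) and the TGF-beta list (0.32). With doublets removed, 172 genes were higher and 159 lower of 3132 tested. Of these, 106 and 98 were also past 1.5-fold with the doublets kept. In that setting the medians of the type 17 receptor (-0.024), neuropeptide receptor (-0.19) and mature dendritic cell (-0.10) lists reversed. After subtracting free RNA those of the lipid mediator (-0.0030), neuropeptide receptor (-0.20) and cDC1 (-0.0033) lists did. Without members over 20 C1q UMIs the macrophage median was -0.10, and without the top cell of each library the log2 ratio of Ccl17 was 0.16, both chosen after seeing the data. The cause of these changes was not tested.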
